A study of Mus musculus with 43 samples.

Results

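Messenger RNA of the IL-6 cytokine family and its signalling route through STAT3 was followed in mouse lung under exposure to HDM, the house dust mite allergen. The set holds 9 genes, chosen by symbol and found by Entrez ID among the 24475 gene IDs of the count table: the cytokine genes Il6, Il11, Lif and Osm, the receptor genes Osmr, Il6ra and Il6st, the transcription factor gene Stat3 and the feedback inhibitor gene Socs3. All 9 passed the filter on low counts, Il6 only through groups given HDM. The series has 43 lung libraries, sequenced from stranded mRNA preparations. They came from mice given HDM for 15 weeks with an anti-IL-33 antibody (15 libraries), HDM for 15 weeks with an isotype control antibody (4), HDM for 4 weeks (10), HDM for 15 weeks without antibody (7), or saline (7). Every mouse, controls included, was Il33hu/hu, so that all carried a humanised gene for IL-33, an alarmin cytokine of barrier cells, on a C57BL/6NTac (75%) / 129S6SvEvTac (25%) background. The labels used here give no age or dose, and none gives a time for saline, so that time in the study and HDM cannot be told apart in contrasts with saline. The labels do not say which libraries share a cage or a day, and p-values measure the spread between these libraries.

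Cytokines of the IL-6 family act through receptor complexes that contain gp130, the shared signalling chain encoded by Il6st. IL-6 binds the receptor chain encoded by Il6ra, which can be membrane-bound or shed, whereas oncostatin M and leukaemia inhibitory factor (LIF) recruit the chains encoded by Osmr and Lifr. Bound receptors activate JAK kinases, which phosphorylate STAT3, and STAT3 induces target genes that include Socs3, whose product blocks gp130 signalling. In the lung the route is known for acute phase and neutrophilic responses and for epithelial repair. The RNA levels given here do not measure phosphorylation of STAT3.

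The 250 bases upstream of the annotated start were searched for letters of 4 motifs, and the windows of 3 members that rose at 15 weeks and held a match are printed because their RNA is the main readout below. The motifs were TTCNNNGAA, the palindrome bound by STAT factors, TTCCNGGAA, a narrower form of it, TGANTCA, the AP-1 palindrome, and GGNNTTTCC, letters within the NF-kB motif, on both strands. Every TTCCNGGAA match is also a TTCNNNGAA match. The sequences are from RefSeq, build GRCm38.p6, which had an entry for 8 of the 9 members. The windows are chr5:30012864-30013113 on the plus strand for Il6, chr11:4257318-4257567 on the plus strand for Lif and chr11:117969367-117969616 on the minus strand for Socs3, and each is written 5′ to 3′ along its gene's strand with matches in capitals.
Il6: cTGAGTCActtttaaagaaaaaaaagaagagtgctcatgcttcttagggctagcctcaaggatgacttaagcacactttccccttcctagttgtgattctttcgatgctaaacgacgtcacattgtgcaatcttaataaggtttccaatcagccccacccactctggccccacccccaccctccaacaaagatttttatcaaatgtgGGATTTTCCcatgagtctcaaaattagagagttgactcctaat
Lif: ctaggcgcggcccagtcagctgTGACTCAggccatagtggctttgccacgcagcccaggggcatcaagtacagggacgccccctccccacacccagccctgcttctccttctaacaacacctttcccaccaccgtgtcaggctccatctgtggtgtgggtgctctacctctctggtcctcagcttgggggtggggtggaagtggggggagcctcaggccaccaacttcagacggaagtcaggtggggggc
Socs3: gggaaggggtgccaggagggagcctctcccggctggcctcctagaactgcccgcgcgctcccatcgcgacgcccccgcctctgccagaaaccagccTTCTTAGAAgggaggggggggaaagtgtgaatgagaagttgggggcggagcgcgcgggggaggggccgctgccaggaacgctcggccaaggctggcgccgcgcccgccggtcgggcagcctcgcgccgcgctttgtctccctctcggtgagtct

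In the Il6 window TGAGTCA lay at -249 to -243 and GGATTTTCC at -43 to -35, counted from the base before the start. The Lif window held TGACTCA at -228 to -222, and the Socs3 window held TTCTTAGAA at -154 to -146. The Socs3 window lies inside the annotated span of the gene, since other transcripts start further upstream. Of 2 Il11 windows 1 held TGAGTCA, and the windows of Osmr, Il6ra, Il6st and Stat3 held none of the 4 motifs. Of 32851 mouse promoter windows of the same length, 7.02% held TTCNNNGAA, 0.913% TTCCNGGAA, 6.75% TGANTCA and 4.93% GGNNTTTCC. These are letter matches and were not tested as binding sites.

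Libraries held 4.80 to 12.6 M counts, and no pair was identical. The numbers in the sample labels fall into a lower and a higher range, called number ranges 1 and 2, with libraries of every group in both. Nothing in the labels says what the ranges mark, and the fit of each comparison carries a term for them, which 1 alternative leaves out. Fits within range 1 alone tested 15471 genes and within range 2 alone 16090 genes. HDM 15-week replicate 1 and HDM 4-week replicate 3 had the lowest mean correlation with their own group (0.919 and 0.922, against at least 0.950 in the others), and results that change without them, a setting chosen after seeing the data, are given both ways where a call of a member changes. Markers of lung epithelium, such as surfactant protein genes, were abundant in every group, while 2 of 6 liver markers were at 0 throughout. Neutrophil markers (10 genes) summed to a median of 337 CPM at 15 weeks of HDM, against 219 CPM in saline. In bulk tissue, fewer cells of a type and less RNA per cell cannot be told apart. Values are CPM, counts scaled to library size with TMM factors, and adjusted p-values are Benjamini-Hochberg values over 15598 genes from edgeR's quasi-likelihood test on all libraries, called at 0.05.

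Per kilobase of exon, Socs3, Stat3, Il6st and Osmr stood above the cytokine genes, while Il6ra lay among the cytokine genes at 15 weeks of HDM. At 15 weeks of HDM the mean level was 53.7 CPM per kb for Socs3, 33.4 for Stat3, 31.8 for Il6st and 13.6 for Osmr. It was 4.57 CPM per kb for Osm, 4.23 for Il6ra, 2.71 for Lif, 2.10 for Il6 and 0.823 for Il11. In saline the order differed: Il6st led with 46.5 CPM per kb, followed by Stat3 at 22.6, Socs3 at 13.99, Osmr at 8.58 and Il6ra at 7.74, and Il6 was last at 0.146. Il6, Il11, Il6ra and Stat3 each overlap another annotated gene, and the strand setting of the counting is not stated in the labels, so their counts may hold reads of the neighbour.

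At 4 weeks of HDM the cytokine genes Il6 and Osm and the inhibitor gene Socs3 were higher than in saline, and the genes of both chains of the IL-6 receptor were lower. Il11, Lif, Osmr and Stat3 did not pass the test. Of the 9 members 3 rose and 2 fell, beside 56.8% of all tested genes called in this contrast (29.3% higher, 27.5% lower), so the share called among the members is near the background. The median log2 fold change over the members was 0.29, against 0.01 over all genes. Il6 and Osm had groups that did not overlap, as 20% of all genes did.

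Il6 (Entrez 16193, chromosome 5, 30013114 to 30019975, GRCm38.p6) encodes the founding cytokine of the family. It ranged from 1.40 to 5.01 CPM with a median of 2.88 at 4 weeks of HDM, and from 0.133 to 0.655 CPM with a median of 0.337 in saline. Every HDM library lay above every saline library, at a log2 fold change of 3.14 ± 0.47 (SE, adjusted p = 6.71e-07). The saline level rests on 27 counts over 7 libraries, 1 to 7 in each, and the fitted fold change carries that error. With at most 0.655 CPM in saline, Il6 passed the filter on low counts only through groups where it was higher. Its separation from saline is therefore given as a description. Osm (Entrez 18413, chromosome 11, 4236785 to 4241026), which encodes oncostatin M, a cytokine mainly of myeloid cells and T cells, spanned 3.17 to 7.003 CPM with a median of 5.80 after HDM. In saline it spanned 0.943 to 2.61 CPM with a median of 1.497. The groups did not overlap, and the log2 fold change was 1.70 ± 0.27 (adjusted p = 2.22e-06). In the same contrast 7 of 10 monocyte and interstitial macrophage markers were higher and 1 lower, with sums of 618 to 1117 CPM at 4 weeks and 337 to 557 CPM in saline. Of 7 T cell markers 6 were higher and 1 lower, with sums of 117 to 217 CPM at 4 weeks and 54.04 to 115 CPM in saline. Neutrophil markers were mixed, with 3 of 10 higher and 2 lower and a median log2 fold change of -0.24. Their sums were 186 to 480 CPM at 4 weeks and 147 to 297 CPM in saline. The part of these cells in the values of Il6 and Osm was not tested.

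Lif (Entrez 16878, chromosome 11, 4257568 to 4272514), the gene of leukaemia inhibitory factor, had a median of 7.64 CPM at 4 weeks (4.67 to 13.3) and of 6.66 CPM in saline (5.12 to 8.51). Its groups overlapped widely, with a log2 fold change of 0.29 (95% interval -0.07 to 0.64, adjusted p = 0.160). Il11 (Entrez 16156, chromosome 7, 4772373 to 4782907), which encodes a cytokine made by stromal and epithelial cells, was scarce. It had 7 to 22 counts per library at 4 weeks and 6 to 13 in saline, or medians of 1.28 and 1.01 CPM. Its log2 fold change was 0.53 (95% interval -0.16 to 1.22), which at this depth was not distinguishable from 0.

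Among the receptor genes, Il6ra (Entrez 16194, chromosome 3, 89869324 to 89913196), the ligand-binding chain for IL-6, had a median of 37.97 CPM at 4 weeks (30.03 to 69.3), against 69.9 CPM in saline (51.7 to 74.9). In 9 of 10 HDM libraries it lay below every saline library, the exception being replicate 3, and it fell by 0.76 ± 0.11 on the log2 scale (adjusted p = 5.68e-07). Il6st (Entrez 16195, chromosome 13, 112464070 to 112506860), the gp130 gene, had a median of 379 CPM (191 to 491) at 4 weeks and 512 CPM (473 to 557) in saline. It fell by 0.47 ± 0.12 (adjusted p = 0.00120). After a correction of the counts for GC and length the fall was 0.16 (adjusted p = 0.0751), so the call for Il6st does not hold there. Of 8 endothelial markers 5 also fell, with sums of 1774 to 2981 CPM at 4 weeks and 3081 to 4079 CPM in saline, and their part was not tested. Osmr (Entrez 18414, chromosome 15, 6813568 to 6874968), the oncostatin M receptor gene, had a mean of 105 ± 19.97 CPM (SD, n = 10) in the 4-week libraries and 104 ± 15.97 CPM in the 7 saline ones. The log2 fold change was 0.03 ± 0.15, and 0.38 with an adjusted p of 0.0158 after the GC and length correction.

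Stat3 (Entrez 20848, chromosome 11, 100886806 to 100939594) averaged 245 ± 17.2 CPM at 4 weeks of HDM and 215 ± 21.1 CPM in saline. Its log2 fold change of 0.20 ± 0.09 missed the threshold (adjusted p = 0.0576), and passed it in 6 of the 11 alternatives, among them the fit without HDM 15-week replicate 1 and HDM 4-week replicate 3 (0.18, adjusted p = 0.0214). Socs3 (Entrez 12702, chromosome 11, 117966079 to 117970336) had a median of 63.7 CPM (39.6 to 88.9), against 39.2 CPM in saline (33.6 to 48.0). In 7 of 10 HDM libraries it lay above every saline library, and it rose by 0.65 ± 0.21 (adjusted p = 0.00740). The 4 HDM libraries of number range 1 had a median of 45.6 CPM and the 6 of range 2 a median of 75.5 CPM. Within number range 1, with 4 against 2 libraries, 2 members were called (Il6 and Osm), beside 2309 of all genes, and within range 2, with 6 against 5, 6 were called, beside 9285 of all genes.

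**Figure D1:**
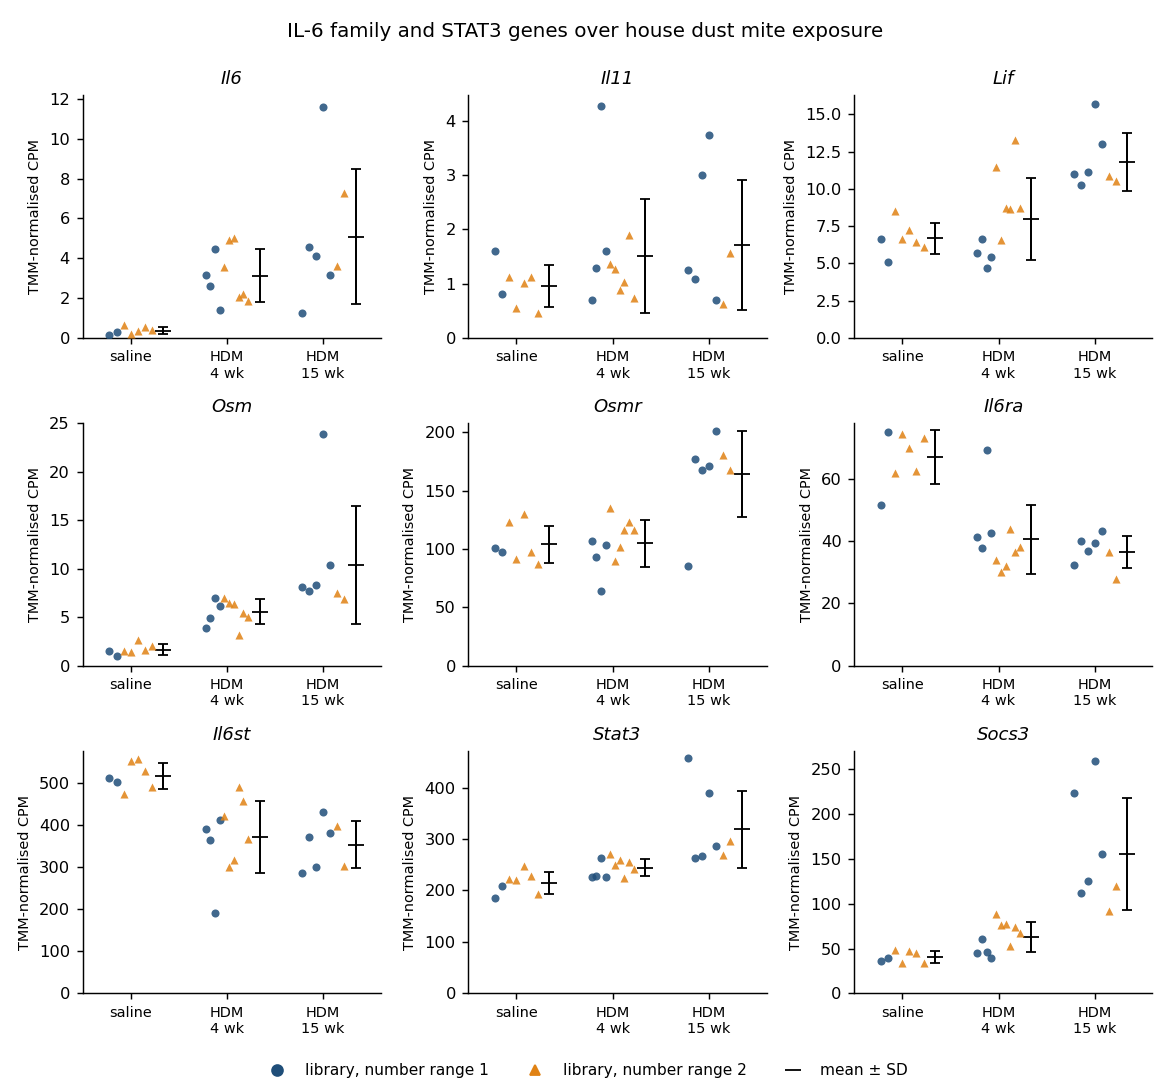
TMM-normalised CPM (vertical axes, linear, from 0) of the 9 genes in each library of the saline, 4-week HDM and 15-week HDM groups; circles and triangles mark number ranges 1 and 2, and bars give the mean ± SD (n = 7, 10 and 7). Il6 and Osm lay above every saline library at both times, while all 15-week libraries of Il6ra and Il6st lay below the saline range.

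After 15 weeks of HDM, 8 of the 9 genes differed from saline. The cytokine genes Il6, Osm and Lif, the receptor gene Osmr, Stat3 and Socs3 rose, and the IL-6 receptor genes Il6ra and Il6st fell. Il11 was the 1 gene not called. The share of all genes called was 59.2%, with 31.2% higher and 28.1% lower. The median log2 fold change was 0.75 for the members and 0.01 for all genes. Groups did not overlap for 7 members, every one but Il11 and Osmr, where the share over all genes was 28.6%.

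Il6 ranged from 1.25 to 11.6 CPM at 15 weeks with a median of 4.13. Its lowest library was replicate 1 and its highest replicate 4, and its log2 fold change over saline was 3.98 ± 0.50 (adjusted p = 1.71e-08). In the fit of only these 2 groups Il6 did not pass the filter on low counts and was not tested. Osm had 8.15, 7.64, 8.27, 23.9, 10.4, 7.45 and 6.84 CPM in the 7 HDM libraries. The highest value was again that of replicate 4, and the rise over saline was 2.62 ± 0.30 (adjusted p = 2.99e-09). Lif had a median of 11.04 CPM (10.3 to 15.7), above the highest saline library at 8.51 CPM, and rose by 0.999 ± 0.20 (adjusted p = 4.31e-05). Il11 had 5 to 29 counts per HDM library, with a mean of 1.71 ± 1.195 CPM against 0.956 ± 0.388 CPM in saline. Its log2 fold change was 0.63 (95% interval -0.14 to 1.40, adjusted p = 0.153).

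The receptor genes moved in opposite directions. Osmr had a median of 171 CPM at 15 weeks (85.5 to 201), against 97.4 CPM in saline (87.5 to 130), and rose by 0.75 ± 0.16 (adjusted p = 0.000164). Of the 7 HDM libraries 6 lay above the saline range, and replicate 1 lay below it. Il6ra had a median of 36.7 CPM (27.9 to 43.2), all below the lowest saline library at 51.7 CPM, and fell by 0.95 ± 0.13 (adjusted p = 7.88e-08). Il6st had a median of 371 CPM (287 to 431), all below the lowest saline library at 473 CPM, and fell by 0.51 ± 0.14 (adjusted p = 0.00157). In the same contrast 7 of 8 endothelial markers fell, with none higher, and their summed level had a median of 1808 CPM (1294 to 2460) at 15 weeks and 3787 CPM (3081 to 4079) in saline. Markers of some other lung cells fell further than the median of -0.95 for the endothelial list, and those of others did not. Of 8 type I alveolar markers 7 fell (median -1.71), with sums of 1806 to 3312 CPM at 15 weeks and 5171 to 6513 CPM in saline. Of 5 club cell markers 4 fell and 1 rose (median -1.95), with sums of 2890 to 9078 CPM at 15 weeks and 16222 to 28396 CPM in saline. All 5 mesothelial markers fell (median -1.53), with sums of 76.0 to 151 CPM at 15 weeks and 131 to 293 CPM in saline. In contrast, all 8 type II alveolar markers rose (median 0.75). Fibroblast markers were mixed, with 2 of 8 higher and 4 lower (median -0.62). The part of these shifts in the values of Il6ra and Il6st was not tested.

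Stat3 had a median of 286 CPM at 15 weeks (264 to 458), above the highest saline library at 248 CPM, and rose by 0.61 ± 0.10 (adjusted p = 2.64e-06). Socs3 had 224, 112, 125, 259, 156, 91.5 and 120 CPM in the HDM libraries, against 33.6 to 48.0 CPM in saline. Its lowest HDM library had nearly the level of the highest at 4 weeks, and the log2 fold change over saline was 2.07 ± 0.24 (adjusted p = 3.36e-09), or 4.20-fold. Without HDM 15-week replicate 1 and HDM 4-week replicate 3 the same number of members was called, 8, and Socs3 rose by 1.94. Within number range 1, 6 members and 4194 of all genes were called, and within range 2, 7 members and 6912 of all genes. Of the 10 neutrophil markers 8 rose, none fell, and their sum spanned 276 to 641 CPM at 15 weeks and 147 to 297 CPM in saline. Monocyte and interstitial macrophage markers moved further: 7 of 10 rose and 1 fell, with a median log2 fold change of 2.16 against 0.73 for the neutrophil list, and sums of 786 to 1318 CPM at 15 weeks and 337 to 557 CPM in saline. Of 8 alveolar macrophage markers 5 rose and none fell, with a median of 1.44 and sums of 7173 to 17741 CPM at 15 weeks and 516 to 2369 CPM in saline. Neutrophils and macrophages are known sources of Osm, and the part of these shifts in the values of Osm and Socs3 was not tested.

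At 15 weeks of HDM Lif, Osm, Osmr, Stat3 and Socs3 were higher than at 4 weeks and no member was lower, beside 21.4% of all genes called (12.3% higher, 9.08% lower). The median log2 fold change over the members was 0.71, against -0.01 over all genes. Socs3 averaged 155 ± 62.7 CPM at 15 weeks (n = 7) and 62.9 ± 16.6 CPM at 4 weeks (n = 10), a log2 fold change of 1.42 ± 0.21 (adjusted p = 1.80e-05). It was the 1 member whose groups did not overlap, with a lowest value of 91.5 CPM at 15 weeks and a highest of 88.9 CPM at 4 weeks, and 2% of all genes had groups apart. Osmr rose by 0.72 ± 0.15 (adjusted p = 0.000705) and 6 of the 7 libraries at 15 weeks lay above all at 4 weeks. Osm was above every 4-week library in 6 of 7 too, Stat3 in 4 and Lif in 1. Osm rose by 0.91 ± 0.25 (adjusted p = 0.00702), Lif by 0.71 ± 0.18 (adjusted p = 0.00405) and Stat3 by 0.41 ± 0.09 (adjusted p = 0.00130). Of the 10 neutrophil markers 5 were higher and 1 was lower at 15 than at 4 weeks. Their sum spanned 276 to 641 CPM at 15 weeks and 186 to 480 CPM at 4 weeks, and their part in these values was not tested.

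The IL-6 receptor genes were not called between these times. Il6ra differed by -0.19 (95% interval -0.42 to 0.05) and Il6st by -0.04 (-0.29 to 0.21). Il6 itself averaged 5.09 ± 3.40 CPM at 15 weeks and 3.12 ± 1.32 CPM at 4 weeks, and its log2 fold change of 0.85 ± 0.36 missed the threshold (adjusted p = 0.0863). Without HDM 15-week replicate 1 and HDM 4-week replicate 3 it was 1.11 with an adjusted p of 0.0297. Within number range 1, with 5 against 4 libraries, 4 members were called, beside 1409 of all genes, and within range 2, with 2 against 6, none of the 9 was, where 149 genes were called in all. Osm was called in neither range (adjusted p = 0.0583 and 0.683) nor in the fit of only the 2 groups compared (adjusted p = 0.0681), and in that fit Stat3 was not called either. In a fit with an interaction of group and range, the Lif log2 fold change was 1.12 in range 1 and 0.16 in range 2 (p = 0.0121 for the difference, adjusted p = 0.468). For Socs3 it was 1.87 in range 1 and 0.54 in range 2. The difference between ranges for Socs3 was 1.34 ± 0.41 (p = 0.00221), and missed the threshold when adjusted over all genes (adjusted p = 0.468).

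**Figure D2:**
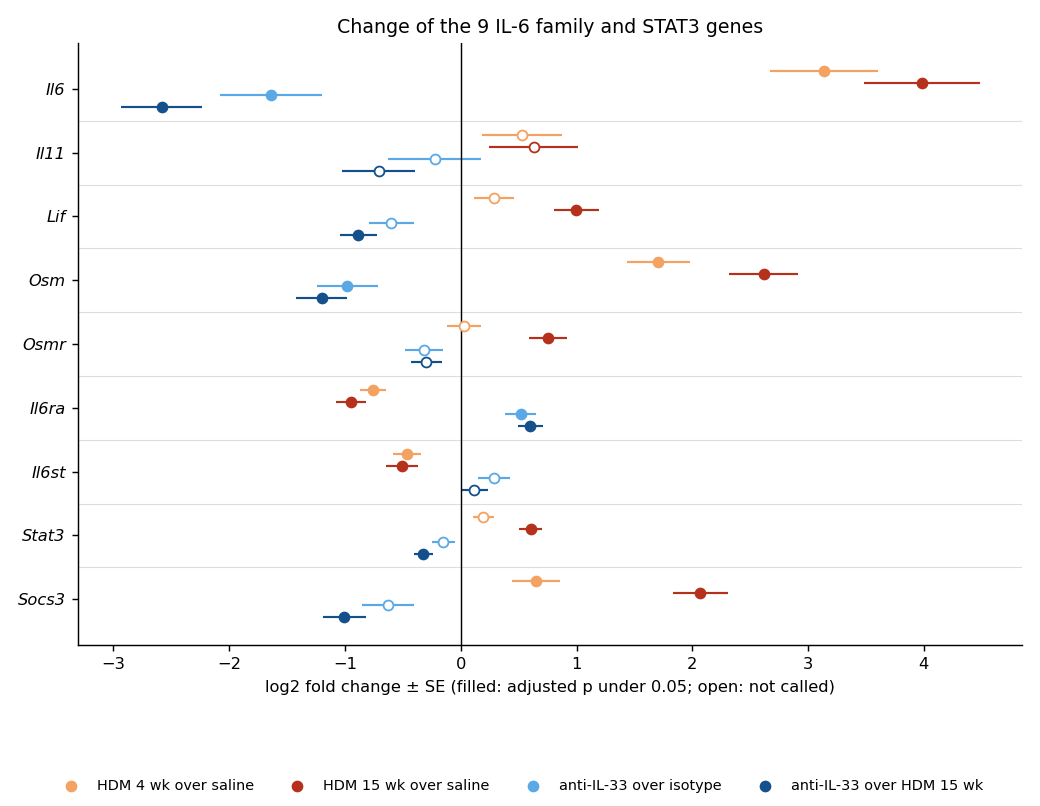
Log2 fold change (horizontal axis) with its SE for each of the 9 genes in 4 comparisons, as coloured in the legend; filled points have an adjusted p under 0.05 and open points do not. The 2 HDM comparisons share the saline libraries, and the 2 antibody comparisons share the anti-IL-33 libraries. Il6 and Osm have filled points right of 0 under HDM and left of 0 under anti-IL-33, and Il6ra the reverse.

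The antibody comparison asked how the genes differed when anti-IL-33 was given with 15 weeks of HDM. Against the isotype control, Il6 and Osm were lower with anti-IL-33 and Il6ra was higher. The other 6 members were not called. All genes called in this contrast made up 6.71%, with 3.57% higher and 3.14% lower. The median log2 fold change was -0.32 over the members and 0.01 over all genes. No member had groups that did not overlap (2.43% of all genes did). The comparison has 15 against 4 libraries, and without isotype replicate 1 or without isotype replicate 3 none of the 9 members passed. Without HDM 15-week replicate 1 and HDM 4-week replicate 3, which belong to neither group but enter the shared estimate of spread, 6 passed, with Lif, Socs3 and Il6st as additions. Within either number range alone none of the 9 passed (8 against 3 libraries with 297 of all genes called, and 7 against 1 with 1 called).

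Il6 had a median of 0.693 CPM with anti-IL-33 (0.137 to 2.76) and 3.46, 1.71, 2.68 and 2.56 CPM in the 4 isotype libraries. In 13 of 15 anti-IL-33 libraries it lay below every isotype library. It fell by 1.64 ± 0.44 on the log2 scale (adjusted p = 0.0252). Without isotype replicate 1 the fall was 1.44 (adjusted p = 0.152), and without replicate 3 it was 1.59 (adjusted p = 0.111). Osm had a median of 3.69 CPM with anti-IL-33 (2.33 to 7.50) and 8.97, 5.61, 13.1 and 7.86 CPM with the isotype. Of the 15 anti-IL-33 libraries 10 lay below all of these, and Osm fell by 0.98 ± 0.27 (adjusted p = 0.0270, and 0.106 and 0.186 without isotype replicates 1 and 3).

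Lif averaged 6.85 ± 2.33 CPM with anti-IL-33 and 9.70 ± 0.683 CPM with the isotype, with a log2 fold change of -0.60 ± 0.20 that just missed the threshold (adjusted p = 0.0522). DESeq2 (adjusted p = 0.0366) and limma-voom (adjusted p = 0.0488) called it. Il11 had 0.945 ± 0.352 CPM with anti-IL-33 and 1.28 ± 0.687 CPM with the isotype (log2 fold change -0.23, 95% interval -1.04 to 0.58).

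Il6ra had a median of 55.3 CPM with anti-IL-33 (40.3 to 68.1) and 39.97, 43.3, 37.2 and 35.1 CPM with the isotype. It was above every isotype library in 13 of 15, and rose by 0.52 ± 0.13 (adjusted p = 0.0229). It was not called without isotype replicate 1 or 3, nor without isotype replicate 4 (adjusted p = 0.0532) or after the GC and length correction (adjusted p = 0.0918). Il6st averaged 388 ± 50.004 CPM with anti-IL-33 and 314 ± 60.5 CPM with the isotype (log2 fold change 0.29 ± 0.14, adjusted p = 0.178). Osmr averaged 138 ± 33.5 CPM with anti-IL-33 and 167 ± 37.1 CPM with the isotype (-0.32 ± 0.16, adjusted p = 0.197).

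Stat3 averaged 258 ± 25.3 CPM with anti-IL-33 and 283 ± 21.95 CPM with the isotype, and its log2 fold change was -0.15 (95% interval -0.35 to 0.05). Socs3 had a median of 78.0 CPM with anti-IL-33 (45.6 to 146) and 137, 108, 121 and 114 CPM with the isotype. It lay below every isotype library in 12 of 15, with a log2 fold change of -0.63 ± 0.23 that missed the threshold (adjusted p = 0.0748). Of the 10 neutrophil markers 6 fell here with none higher, and their sum spanned 123 to 285 CPM with anti-IL-33 and 329 to 378 CPM with the isotype. The part of that shift in the fall of Osm was not tested.

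**Figure D3:**
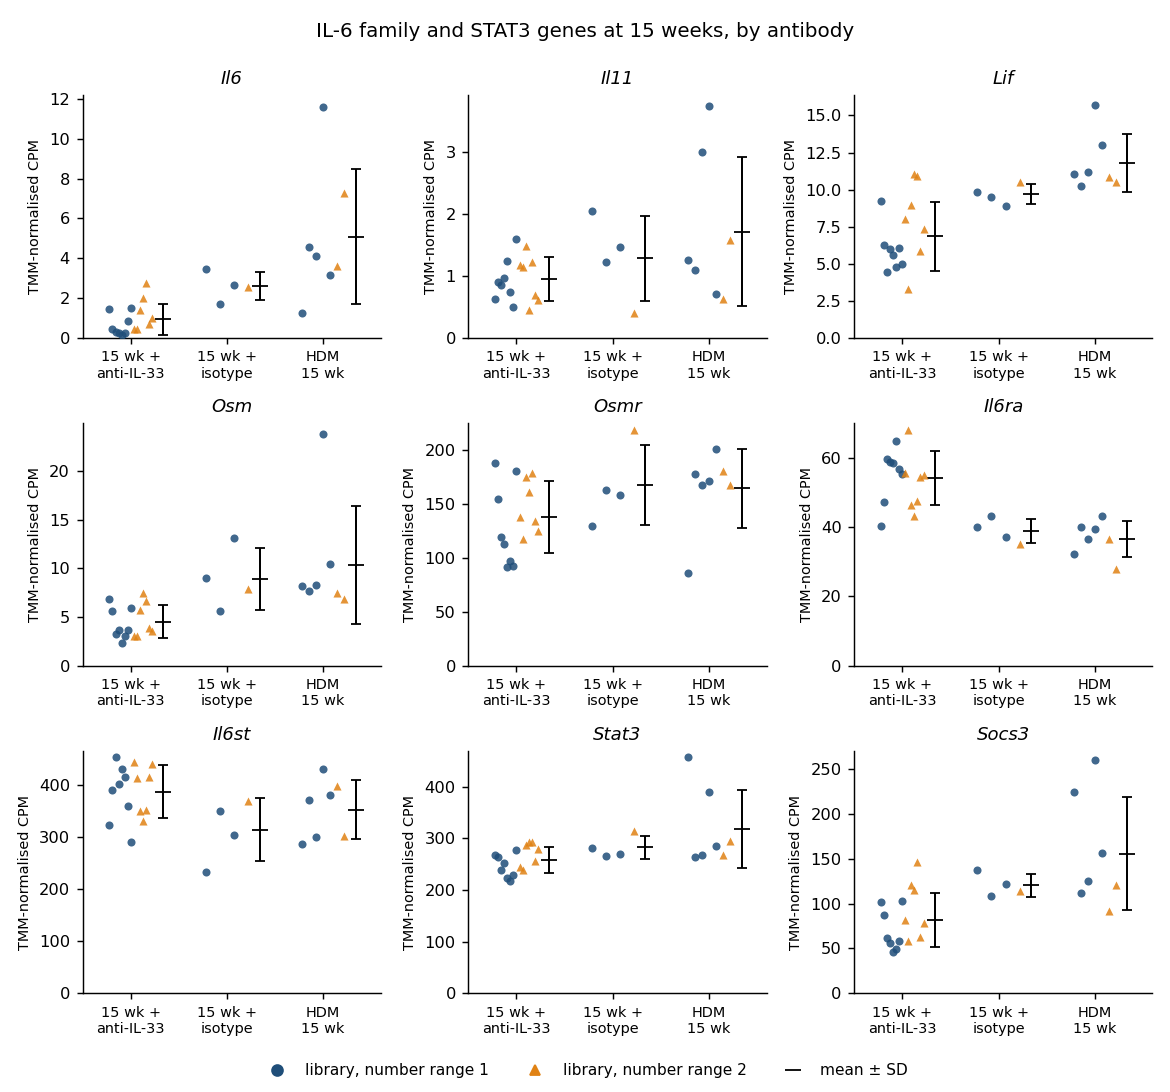
TMM-normalised CPM (vertical axes, linear, from 0) of the 9 genes in each library at 15 weeks of HDM with anti-IL-33 (n = 15), with isotype (n = 4) and without antibody (n = 7); symbols mark number ranges 1 and 2 and bars give the mean ± SD. Medians of Il6 were 0.693 CPM with anti-IL-33, 2.62 CPM with isotype and 4.13 CPM without antibody, while Il6ra lay highest with anti-IL-33.

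Against 15-week HDM libraries without antibody, the anti-IL-33 group had lower Il6, Lif, Osm, Stat3 and Socs3 and higher Il6ra, beside 35.8% of all genes called (15.9% higher, 19.9% lower). Il11, Osmr and Il6st were not called. The median log2 fold change of the members was -0.71, against 0.00 for all genes, and no member had groups that did not overlap (0.417% of all genes did). Il6 averaged 0.924 ± 0.756 CPM with anti-IL-33 (n = 15) and 5.09 ± 3.40 CPM without antibody (n = 7). It fell by 2.58 ± 0.35 (adjusted p = 6.88e-06). Osm fell by 1.201 ± 0.22 (adjusted p = 0.000194) and Lif by 0.89 ± 0.16 (adjusted p = 0.000163), each with 13 of 15 anti-IL-33 libraries below every library without antibody.

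Il6ra was above every library without antibody in 14 of 15, and rose by 0.60 ± 0.11 (adjusted p = 0.000172). Stat3 fell by 0.32 ± 0.08 (adjusted p = 0.00291), at 258 ± 25.3 CPM with anti-IL-33 and 319 ± 75.5 CPM without antibody. Socs3 fell by 1.01 ± 0.19 (adjusted p = 0.000206), at 81.7 ± 29.9 CPM with anti-IL-33 and 155 ± 62.7 CPM without antibody. In 10 of 15 anti-IL-33 libraries it lay below the lowest library without antibody. Within number range 1 (8 against 5 libraries) 6 members were called, beside 3561 of all genes, and within range 2 (7 against 2) none of the 9, where only 4 genes were called in all. Socs3 fell by 1.32 in range 1 and by 0.16 in range 2, and the difference of -1.16 ± 0.38 had p = 0.00378 and, over all genes, an adjusted p of 0.484. Without HDM 15-week replicate 1 and HDM 4-week replicate 3, 8 members were called, with Il11 at -0.82 (adjusted p = 0.0390) and Osmr at -0.39 (adjusted p = 0.0144) as additions, and Stat3 fell by 0.21. Of 10 immediate early genes, which respond to tissue handling as well as to stimuli, 7 were lower with anti-IL-33 in this contrast and none was higher, with sums of 334 to 627 CPM with anti-IL-33 and 465 to 786 CPM without antibody. Of the 10 neutrophil markers 7 were also lower and none higher, with sums of 123 to 285 CPM with anti-IL-33 and 276 to 641 CPM without. The part of either list in the fall of Socs3 was not tested.

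Between the isotype group and the group without antibody none of the 9 genes was called, and 0% of all genes were called (0 of 15598 by edgeR and by limma-voom, 8 by DESeq2, and 932 at an unadjusted p under 0.05). None of the 9 had an unadjusted p under 0.05, and none had groups apart (0.314% of all genes did). Il6 averaged 2.60 ± 0.716 CPM with the isotype (n = 4) and 5.09 ± 3.40 CPM without antibody, with a 95% interval for the log2 fold change of -1.90 to 0.01. The interval was -0.90 to 0.14 for Socs3, -0.83 to 0.39 for Osm and -0.21 to 0.38 for Il6ra, so these 2 groups cannot be called alike.

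With anti-IL-33 the genes also differed from saline. Il6, Osm, Osmr, Stat3 and Socs3 were higher and Il6ra and Il6st were lower, beside 38.6% of all genes called (20% higher, 18.5% lower), and the median was 0.28 against 0.00 for all genes. Il6 averaged 0.924 ± 0.756 CPM with anti-IL-33 and 0.355 ± 0.185 CPM in saline, and rose by 1.40 ± 0.48 (adjusted p = 0.0177). Neither limma-voom (1.08, adjusted p = 0.104) nor the fit within number range 1 made that call. In the fit of only these 2 groups Il6 did not pass the filter on low counts and was not tested. Osm rose by 1.42 ± 0.26 (adjusted p = 3.51e-05) and Socs3 by 1.06 ± 0.20 (adjusted p = 4.52e-05), each above every saline library in 14 of 15. Osmr rose by 0.46 ± 0.14 (adjusted p = 0.00859) and Stat3 by 0.28 ± 0.08 (adjusted p = 0.00712). Il6st was the 1 member whose groups did not overlap (9.87% of all genes did), at 291 to 455 CPM with anti-IL-33 and 473 to 557 CPM in saline, and fell by 0.39 ± 0.11 (adjusted p = 0.00525). Of 8 endothelial markers 7 were lower, with sums of 1377 to 3053 CPM with anti-IL-33 and 3081 to 4079 CPM in saline, and their part was not tested. Il6ra fell by 0.35 ± 0.10 (adjusted p = 0.00746). Lif did not pass, at 0.11 (95% interval -0.22 to 0.45), nor did Il11, at -0.08 (-0.75 to 0.59). Within number range 1, with 8 against 2 libraries, none of the 9 was called, beside 578 of all genes, and within range 2, with 7 against 5, 7 were, beside 7178 of all genes.

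Across the 5 groups Il6, Il11, Lif, Osm, Stat3 and Socs3 had their highest mean at 15 weeks of HDM without antibody. For Il6 the mean fell off through 4 weeks of HDM, the isotype group and the anti-IL-33 group to saline, and of these 4 steps only that between anti-IL-33 and isotype exceeded the larger SD of the pair. For Socs3 the order was 15 weeks, isotype, anti-IL-33, 4 weeks and saline, and the steps between anti-IL-33 and isotype and between 4 weeks and saline exceeded it. Osm kept the order 15 weeks, isotype, 4 weeks, anti-IL-33 and saline, with steps beyond the larger SD between isotype and 4 weeks and between anti-IL-33 and saline. Il6ra and Il6st were highest in saline and next highest with anti-IL-33, and for both genes that step exceeded the larger SD. No neighbouring groups of Il11 or Osmr differed by more than it.

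Other genes of the route were described from lists chosen with earlier results of these data known. Of 5 measured receptors outside the 9 members, 1 rose and 2 fell at 15 weeks over saline, where 31.2% of all genes rose and 28.1% fell. Lifr, the LIF receptor chain that pairs with gp130, averaged 93.1 ± 24.8 CPM at 15 weeks and 270 ± 31.9 CPM in saline, and fell by 1.496 ± 0.19 (adjusted p = 2.45e-08). At 4 weeks Lifr had fallen by 0.99 ± 0.17 (adjusted p = 5.04e-06), and with anti-IL-33 it was 0.60 ± 0.16 above the 15-week group without antibody (adjusted p = 0.00491). Against the isotype Lifr differed by 0.55 ± 0.20 and was not called (adjusted p = 0.0789). None of the 5 receptors was called in that contrast, where 6.71% of all genes were. Il11ra1, the IL-11 receptor chain, rose by 0.95 ± 0.21 at 15 weeks (adjusted p = 0.000153). Il31ra, a receptor chain that pairs with the product of Osmr, rose by 1.86 ± 0.31 at 4 weeks (adjusted p = 4.53e-06), and was lower at 15 than at 4 weeks (log2 fold change -1.33 ± 0.31, adjusted p = 0.00227).

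Among 7 other ligand genes 5 were measured, and 3 rose at 4 weeks and 2 at 15 weeks, with none lower, where 29.3% and 31.2% of all genes rose. Ebi3, a subunit of IL-27 and IL-35, rose by 0.96 ± 0.19 at 4 weeks (adjusted p = 5.30e-05). Of 10 JAK and other STAT genes, 4 rose and 4 fell at 15 weeks over saline, where 59.2% of all genes were called, and none was called with anti-IL-33 against the isotype, where 6.71% were. Jak3 rose by 0.98 ± 0.15 (adjusted p = 5.23e-07), and Stat4 fell by 0.54 ± 0.17 (adjusted p = 0.00728). Of 2 genes of proteases that shed the IL-6 receptor, Adam17 rose by 0.43 ± 0.13 at 15 weeks (adjusted p = 0.00328), where 31.2% of all genes rose. Adam10 was not called (0.19 ± 0.12, adjusted p = 0.177).

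Of 12 other restraints of JAK-STAT signalling, 6 rose and 2 fell at 15 weeks over saline, 5 and 4 at 4 weeks, and 2 fell with anti-IL-33 against the isotype with none higher, beside 59.2%, 56.8% and 6.71% of all genes called in these contrasts. Calls against the isotype depend on single isotype libraries: 1046 of all genes were called, but 94 without isotype replicate 1 and 58 without replicate 3. The 2 that fell there were Cish (log2 fold change -0.68 ± 0.14, adjusted p = 0.00586), a STAT5-induced inhibitor, and Socs1 (-0.74 ± 0.24, adjusted p = 0.0497, close to the threshold). Unlike Socs3, both had their highest mean at 4 weeks: Socs1 averaged 7.89 ± 2.96 CPM at 15 weeks and 13.4 ± 4.37 CPM at 4 weeks, and was lower at 15 weeks (log2 fold change -0.65 ± 0.21, adjusted p = 0.0261). Cish averaged 51.3 ± 14.03 CPM at 15 weeks and 65.4 ± 11.5 CPM at 4 weeks, and this difference was not among the calls.

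Genes known to respond to STAT3, 20 in all, had more calls in 1 direction than in the other in 6 of the 7 contrasts. At 15 weeks over saline 17 rose and none fell, where 31.2% of all genes rose, and their median log2 fold change was 1.47. At 4 weeks 15 rose and Hp fell, where 29.3% of all genes rose, with a median of 0.89. Pim1, a survival kinase gene, rose by 1.89 ± 0.19 at 15 weeks (adjusted p = 2.19e-10). The secreted acute phase genes Saa3 and Lrg1 rose by 7.79 ± 0.995 and 4.32 ± 0.46, and Batf, an AP-1 family factor, by 1.44 ± 0.19. Between 4 and 15 weeks 12 of the 20 rose and none fell, where 12.3% of all genes rose. The smallest p-values were those of Lrg1 at 2.20 ± 0.37 (adjusted p = 9.30e-05) and the haptoglobin gene Hp at 1.22 ± 0.21 (adjusted p = 0.000117), and the largest rise among the called was that of Saa3 at 2.56 ± 0.65 (adjusted p = 0.00493). Saa3, Hp and Lbp are also known from liver, and of the 6 liver markers 2 were measured above the filter and both were higher at 15 weeks than in saline. The summed level of all 6 was 15.9 to 31.6 CPM at 15 weeks and 0.848 to 4.38 CPM in saline, and its part in the acute phase values was not tested.

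With anti-IL-33, 14 of the 20 were lower and 1 higher than in the 15-week group without antibody, and 5 were lower and none higher than with the isotype, where 19.9% and 3.14% of all genes were lower. The medians were -0.61 and -0.37. Over saline, 14 of the 20 were still higher with anti-IL-33 and 1 was lower, with a median of 0.81. Of all genes 20% were higher and 18.5% lower in that contrast. Timp1, a protease inhibitor gene, fell by 2.62 ± 0.42 against no antibody (adjusted p = 5.89e-05) and by 2.29 ± 0.49 against the isotype (adjusted p = 0.00687). Junb fell by 1.07 ± 0.17 (adjusted p = 5.71e-05) and Pim1 by 0.82 ± 0.15 (adjusted p = 0.000150) against no antibody. Reg3g, an antimicrobial lectin gene of epithelium, was the 1 gene higher than without antibody, and it and Hp at 4 weeks are named here after their values were seen. Reg3g rose over saline both at 15 weeks (2.13) and with anti-IL-33 (3.23 ± 0.46, adjusted p = 5.58e-07), and was 1.097 higher with anti-IL-33 than without antibody, where the other called genes of the list were lower. Against the isotype the count of lower genes was 1 without isotype replicate 1, 0 without replicate 3 and 2 without replicate 4. Without HDM 15-week replicate 1 and HDM 4-week replicate 3 it was 8. Within number ranges 1 and 2, 11 and 0 of the 20 were lower against no antibody, 14 and 15 were higher at 15 weeks over saline, and 4 and 1 were higher at 15 than at 4 weeks. In the same fits 2103 and 4 of all genes were lower against no antibody, 2213 and 3683 were higher at 15 weeks over saline, and 762 and 91 were higher at 15 than at 4 weeks. With all libraries, 7 of 10 immediate early genes and 7 of 10 neutrophil markers were also lower with anti-IL-33 than without antibody. Against the isotype 1 and 6 of them were lower, and none of either list was higher in these 2 contrasts. Their part in the values of the 20 genes was not tested.

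**Figure D4:**
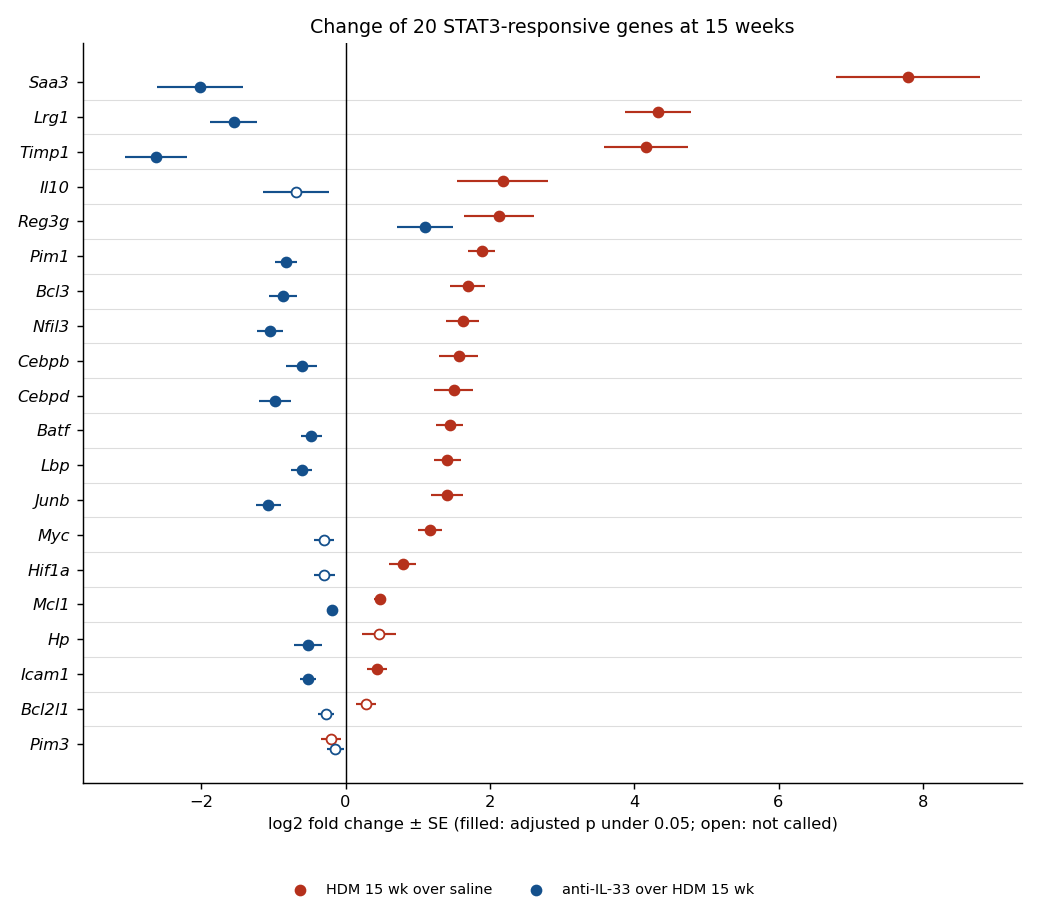
Log2 fold change (horizontal axis) with its SE for 20 STAT3-responsive genes at 15 weeks of HDM over saline and with anti-IL-33 over 15-week HDM without antibody, ordered by the first; filled points have an adjusted p under 0.05. For HDM 17 filled points lie right of 0, and 14 lie left of 0 for anti-IL-33, with Reg3g on the right in both.

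Some members also varied together within groups. For the correlations below only group means were subtracted, so differences between the number ranges within a group remain in them. Socs3 at 4 weeks of HDM, for example, had medians of 45.6 CPM in range 1 and 75.5 CPM in range 2. After subtracting the group means, over 43 libraries that share their library preparation and differ in depth, Stat3 and Socs3 had a Pearson correlation of log2 CPM of 0.77, Lif and Socs3 of 0.69, Osm and Socs3 of 0.68, Il6 and Osm of 0.64 and Il6 and Socs3 of 0.58. Without HDM 15-week replicate 1 and HDM 4-week replicate 3 these were 0.83, 0.72, 0.76, 0.65 and 0.79 over 41 libraries. Other pairs moved more without those libraries: Osmr and Stat3 had 0.59 without them and 0.08 with them, Il6 and Stat3 0.71 and 0.34, and Il6ra and Il6st 0.51 and -0.01. The correlation of Il6ra was -0.56 with Lif and -0.51 with Socs3. The genes most like each member in this measure were Fgf23 (0.80), Spp1 and Gla for Il6, Ccl4 (0.80), Sting1 and Bhlhe40 for Osm, Sbno2 (0.93), Litaf and Wsb2 for Socs3, and Ticam1 (0.90), Ptpn1 and Tle3 for Stat3. They were Prss35 (0.70), Txnrd1 and Ralgds for Lif, Polr2d and S100a4 for Il11, Malt1 (0.87), Gnptab and Abcc5 for Osmr, Igf1r (0.83), Kmt2e and Klf7 for Il6ra, and Heg1 (0.95), Hivep1 and Arhgef12 for Il6st. This ranking used all 43 libraries. Without HDM 15-week replicate 1 and HDM 4-week replicate 3 some of these correlations fell and some rose. Those of Il11 fell from 0.64 to 0.54 with Polr2d and from 0.64 to 0.55 with S100a4. That of Il6ra with Klf7 fell from 0.80 to 0.67, while that of Osm with Bhlhe40 rose from 0.79 to 0.84. All of these values are descriptions and carry no test.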

How the data were processed

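The deposited table holds raw counts per Entrez gene ID for 43 lung libraries. RNA was prepared with a stranded mRNA kit, per the labels' protocols, and the build was GRCm38, per the submitters' processing notes. Not given in the sources used here: aligner, counter, annotation, strand setting, filters. A RefSeq table matched 24375 of 24475 IDs to symbols, and the 100 others held 2.62% of counts. Depth was 4.80 to 12.6 M counts per library.

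Counts were tested with edgeR 4.0.16 (R 4.3.3; TMM, filterByExpr, robust quasi-likelihood) in 1 fit of all groups with a number range term. Adjusted p-values are Benjamini-Hochberg values over 15598 genes. Alternatives included limma 3.58.1 (voom), DESeq2 1.42.0, other filters and size factors, the GC and length correction and left-out libraries. The procedure was tested on simulated data in which only a small part of the genes changed. That test does not cover contrasts where most genes are called. The members and lists were chosen with earlier results of these data known. The genes named were all members, up to 4 called genes with the smallest p per pathway list and contrast, and the 3 genes most like each member within groups, with exceptions stated where they occur. Some genes this rule names are not reported here.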

Additional observations from a re-analysis of the deposited data

Results flagged for a closer look

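In 4 of 36 sets of 1 gene in 1 group, an extreme library stood apart from the rest of its group by a test for single outliers, which chance flags in about 1 of 20. The anti-IL-33 group, with 15 libraries, was larger than the sizes the test covered and was not tested. Il11 was highest in HDM 4-week replicate 3 at 4.28 CPM, where the nearest library had 1.90 CPM. Il6ra was also highest in that library, at 69.3 CPM against a nearest value of 43.98 CPM. Osmr was lowest in HDM 15-week replicate 1 at 85.5 CPM, where the nearest library had 168 CPM. These are the libraries with the lowest correlation with their groups. Osm was highest in HDM 15-week replicate 4 at 23.9 CPM, where the nearest library had 10.4 CPM. No difference of a member's effect between the number ranges passed the threshold over all genes (0 of 63, with 5 at an unadjusted p under 0.05).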

How the results depend on the processing

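Of 772 fold changes of members recomputed under the alternatives, 685 kept their direction and side of the threshold, 43 lost their call, 26 gained one and 18 changed sign, none of them among the called. The filter of at least 1 CPM in at least 4 libraries kept the same genes. The members called moved by over 1.5 times in these cases. Within number range 1 alone the count was 2 for 4 weeks over saline, 0 for anti-IL-33 over isotype and 0 for anti-IL-33 over saline. Within range 2 alone it was 0 for 15 over 4 weeks, 0 for anti-IL-33 over isotype, where 1 isotype library is assumed to vary like the others, and 0 for anti-IL-33 over no antibody. In fits of only the 2 groups compared it was 3 for 15 over 4 weeks and 5 for anti-IL-33 over isotype. The isotype contrast also gave 0 to 3 when 1 isotype library was left out, 7 with isotype and no-antibody libraries as 1 control group, and 6 without the pair of libraries that stand apart. The cause was not tested.

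Sign changes over saline were, within range 1, Lif -0.049 and Osmr -0.10 at 4 weeks and Lif -0.0033 with anti-IL-33, whose Il11 became 0.18 within range 2, 0.020 with no range term and 0.0053 in the fit of only the 2 groups. Between 15 and 4 weeks, Il6st was 0.049 in range 1 and Il11 -0.14 in range 2. Against the isotype, Il11 was 1.26 in range 2 and -0.52 to 0.047 when 1 isotype library was left out (the sign changed without replicate 1), and against no antibody Il6st was -0.048 after the GC and length correction. For isotype over no antibody, Osmr was -0.091 in range 1, -0.075 without isotype replicate 4 and -0.081 without the pair of libraries that stand apart. In range 2 Osm was 0.14, Il6st 0.079, Stat3 0.16 and Socs3 0.11.

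Over all genes, 3334 were called for 15 over 4 weeks, but 1206 in the fit of only the 2 groups, 1409 in range 1 and 149 in range 2. For anti-IL-33 over isotype 1046 were called, but 4153 with only the 2 groups, 1704 by DESeq2, 687 with no filter, 297 and 1 in ranges 1 and 2, 58 to 683 without isotype replicates 1, 3 or 4, 4639 without the pair of libraries that stand apart, and 6280 with 1 control group. Range 1 gave 2309 of 8866 for 4 weeks over saline, 4194 of 9235 for 15 weeks over saline and 578 of 6015 for anti-IL-33 over saline. For anti-IL-33 over no antibody, 5588 were called in all, 3561 in range 1 and 4 in range 2. For isotype over no antibody the alternatives gave 0 to 11. Il6 in saline and Il11 throughout rest on few counts, which limits their precision. No paired analysis was possible because the labels give no pairing.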
